A study of Mus musculus with 3 samples.

Results

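Translation initiation factor genes were taken as the genes whose symbol begins with Eif followed by a digit, which gave 55 of the 24054 genes in the deposited table. Eif3j1 and Eif3j2 are near-identical copies and were read as a sum. Of the resulting 54 entries, 53 had a mean of at least 1 CPM (reads normalised to library size by TMM) over the libraries and were compared, and the remaining entry, Eif4e1b, had 11 reads in hypoxia with T3, 9 in hypoxia and 13 in control. The symbol rule takes in regulators as well as factors, namely the kinases of eIF2 alpha and the proteins that bind eIF4E. RNA came from primary cortical neurons of C57BL/6 mice at embryonic day 17, cultured for 7 days. The culture called hypoxia with T3 received 5 nM of the thyroid hormone triiodothyronine (T3) and 7 hours at 0.2% oxygen, the culture called hypoxia had the same oxygen and time without hormone, and the control stayed at 21% oxygen. The labels do not give the hormone content of the control medium, whether animals were pooled, or the sex of the embryos. Each group is 1 library, so no difference was tested against biological variation.

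Initiation brings the small ribosomal subunit, the initiator tRNA and the mRNA together. The eIF2 complex carries the initiator tRNA, eIF2B recharges eIF2 with GTP, eIF1, eIF1A and eIF5 govern the choice of start codon, eIF3 holds the complex together on the small subunit, and eIF4E, eIF4G and eIF4A bind the cap and unwind the leader. Low oxygen is known to restrain initiation by phosphorylation of eIF2 alpha, which turns eIF2 into an inhibitor of eIF2B, and by release of the 4E-binding proteins from mTORC1 control. Both steps act on proteins, which RNA libraries do not measure.

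The libraries held 22533574 reads in hypoxia with T3, 17118865 in hypoxia and 18081904 in control. The sum over the 55 genes was 9590.3 CPM in hypoxia with T3, 9497 CPM in hypoxia and 7017 CPM in control, which is 1%, 1% and 0.837% of the reads of these libraries. General neuron markers summed to 5748 CPM with T3, 5838 CPM in hypoxia and 6024 CPM in control, with all 11 at a mean of at least 1 CPM. Tubb3 alone was at 739 CPM with T3, 873 CPM in hypoxia and 1771 CPM in control, and the other 10 summed to 5008 CPM with T3, 4965 CPM in hypoxia and 4253 CPM in control. Astrocyte markers (7 of 7 at that level) summed to 541 CPM with T3, 527 CPM in hypoxia and 507 CPM in control, oligodendrocyte lineage markers (8 of 8) to 194 CPM with T3, 192 CPM in hypoxia and 332 CPM in control, and cycling progenitor markers (6 of 6) to 240.3 CPM with T3, 223 CPM in hypoxia and 255 CPM in control. Of the last, Mki67, Top2a and Hes5 were lower in both hypoxic libraries, while Nes, Sox2 and Pax6 were higher. Microglial markers (0 of 7 at that level) summed to 2.13 CPM with T3, 1.88 CPM in hypoxia and 1.76 CPM in control, those of endothelium (1 of 5) to 1.66 CPM with T3, 1.99 CPM in hypoxia and 1.90 CPM in control, and those of fibroblasts (1 of 5) to 12.6 CPM with T3, 12.2 CPM in hypoxia and 8.48 CPM in control. The part of these cell types in the results below was not tested. In such bulk libraries fewer cells of a type and less RNA per cell cannot be told apart.

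Most initiation factor transcripts were moderately higher in hypoxia than in control. All 13 eIF3 entries and all 5 genes of the helicase group were above control. By contrast, 1 of 4 eIF2 alpha kinases, 1 of 3 eIF4E genes and 1 of 4 genes of the 4E-binding group were. These counts for hypoxia held with libraries scaled to equal sums, but the eIF4E gene above control, Eif4e, was then at a log2 ratio of 0.00. In hypoxia with T3, 0 of 3 eIF4E genes were above control under that scaling. Fold changes are ratios of CPM with exact 95% Clopper-Pearson intervals that cover counting error only, while log2 ratios, and the counts at 1.5-fold and 2-fold, were taken with 1 CPM added to each value. Of the 53 entries, 11 were at least 1.5-fold higher in hypoxia, where 8.45% of all 12691 genes compared were, and 1 was at least 1.5-fold lower, where 13.8% of all genes were. At 2-fold, 2 were higher (1.98% of all genes) and 0 lower (4.92% of all genes). A log2 ratio above 0 was seen for 41 of 53, against 54.5% of all genes. The median log2 ratio was 0.35 over the entries and 0.05 over all genes.

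These counts depend on how libraries were scaled. Under scaling of all libraries to equal sums, the all-gene median was −0.10 for hypoxia over control and for hypoxia with T3 over control. The entries at least 1.5-fold higher and lower in hypoxia were then 3 and 2 of 53, where 4.09% and 19.3% of all genes were, so the count of higher entries was near the background. The median of the entries was then 0.18, and 39 of 53 were above 0. The share of all genes above 0 was not computed under that scaling. Counts above 0 with equal sums, here and below, therefore have no background share, and the percentages above 0 belong to the deposited scaling. Shares between members of the same library, given below for paralogs, do not depend on the scaling.

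**Figure D1:**
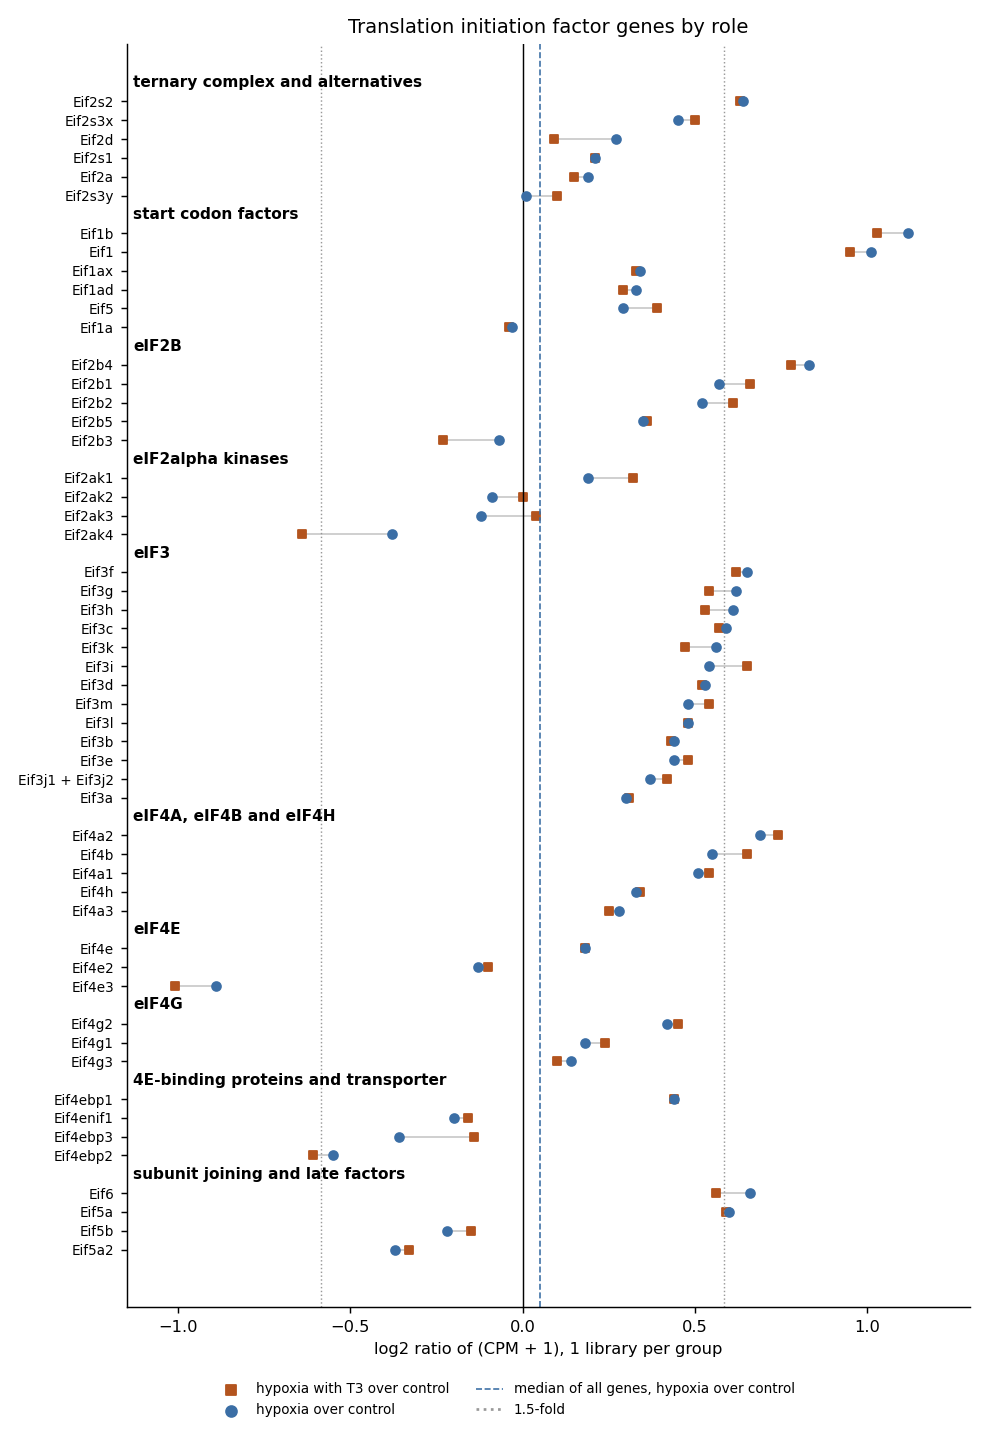
Log2 ratios over control (CPM with 1 added, 1 library per group) for the 53 entries, grouped by role, with hypoxia with T3 as squares and hypoxia as circles. The 13 eIF3 entries lie between 0.30 and 0.65, and Eif4e3 is lowest at −1.01 with T3 and −0.89 in hypoxia. With libraries scaled to equal sums Eif2s3y and Eif4g3 lie below 0 in both, and Eif2a, Eif2d, Eif2ak3 and Eif4e also do in hypoxia with T3.

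The highest ratios of hypoxia over control belonged to Eif1 and Eif1b, paralogs of the factor that keeps the scanning complex open until a start codon is met, and the lowest to Eif4e3 and Eif4ebp2, a cap-binding relative and a repressor of eIF4E. The bases upstream of Eif1, at least 2-fold higher in hypoxia, and of Eif4ebp2, lower in both hypoxic libraries, are shown from RefSeq windows (GRCm38.p6) because these genes lie near the ends of the range. The stretch of Eif1 is chr11:100319699-100319884 (plus strand) and that of Eif4ebp2 chr10:61452670-61452919 (minus strand), each 5′ to 3′ and ending before the first annotated protein-coding transcript start. Capitals mark matches, on either strand, to ACGTG or GCGTG, the core of the hypoxia response element, and to TGANTCA, the AP-1 site.
Eif1: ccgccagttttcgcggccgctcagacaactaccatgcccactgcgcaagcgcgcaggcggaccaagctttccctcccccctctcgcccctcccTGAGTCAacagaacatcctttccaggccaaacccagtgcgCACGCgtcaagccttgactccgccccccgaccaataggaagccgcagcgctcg
Eif4ebp2: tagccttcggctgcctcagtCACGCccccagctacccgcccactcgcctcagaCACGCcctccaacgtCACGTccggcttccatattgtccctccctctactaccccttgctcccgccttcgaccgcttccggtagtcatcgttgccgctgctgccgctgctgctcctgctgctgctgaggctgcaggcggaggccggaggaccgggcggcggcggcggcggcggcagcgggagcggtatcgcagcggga

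In the full windows of 250 bases before the start, Eif1 held 2 matches to the hypoxia core and 1 to the AP-1 site, and Eif4ebp2 held 3 to the core. A match to the core was found for 30 of the 43 member genes with a window (69.8%), against 62.6% of the genes compared that had one and 41.5% of all 27025 genes. A match to TGANTCA was found for 4 of 43 (9.30%), against 4.90% of the genes compared. For TGACGTCA, the cyclic AMP response element, the count was 0 of 43, against 3.28%, and for TGATGNAA, an ATF4 composite element, 1 of 43, against 2.31%. ACGTG and its complement overlap wherever CACGTG occurs.

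Among the start codon factors, Eif1 was at 487 CPM in hypoxia with T3, 509 CPM in hypoxia and 251 CPM in control. It was 1.94-fold (1.88 to 2) higher with T3 and 2.02-fold (1.96 to 2.09) higher in hypoxia than in control. Eif1b was at 133 CPM with T3, 141 CPM in hypoxia and 64.3 CPM in control, 2.06-fold (1.93 to 2.2) higher with T3 and 2.19-fold (2.05 to 2.34) higher in hypoxia. Both were high in each hypoxic library, and Eif1b ranked 200 and Eif1 236 from the highest of 12691 genes for hypoxia over control. Eif1b made up 21.4% of the reads of the pair in hypoxia with T3 (95% Clopper-Pearson interval 20.7 to 22.1), 21.7% in hypoxia (20.9 to 22.4) and 20.4% in control (19.4 to 21.3), and the intervals of hypoxia and control overlap. The other start codon factors were nearer to control. Eif5, which makes eIF2 hydrolyse its GTP, was at 285 CPM with T3, 265 CPM in hypoxia and 216 CPM in control, 1.32-fold higher with T3 and 1.23-fold higher in hypoxia. Eif1ax, the X-linked gene of eIF1A, was at 84.0 CPM with T3, 84.9 CPM in hypoxia and 66.8 CPM in control. Its autosomal relative Eif1a was at 40.8 CPM with T3, 41.3 CPM in hypoxia and 42.1 CPM in control. On the deposited scaling the difference for Eif1a was not detectable at this depth. With libraries scaled to equal sums its log2 ratio in hypoxia over control was −0.20. Eif1ad, a gene with an eIF1A-like domain, was at 30.9 CPM with T3, 31.8 CPM in hypoxia and 25 CPM in control, and 15.3% of its exonic bases lie opposite Banf1. Of the 31-base words of Eif1, 23.0% also occur in transcripts of other genes, against 0.183% for Eif1b. How reads from shared words were assigned is not given in the sources used here, so the counts of Eif1 are uncertain by an amount not measured here. An antisense gene lies opposite 12.7% of the exonic bases of Eif1b.

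In the eIF2 complex, the alpha subunit, the target of the stress kinases, differed least among the autosomal and X-linked subunits. Eif2s1, encoding it, was at 58.0 CPM in hypoxia with T3, 57.8 CPM in hypoxia and 49.9 CPM in control, 1.16-fold higher in each hypoxic library (1.07 to 1.26 and 1.06 to 1.26). With libraries scaled to equal sums the log2 ratio of Eif2s1 in hypoxia over control was only 0.04. Eif2s2, the beta subunit, was at 206 CPM with T3, 208 CPM in hypoxia and 133 CPM in control, 1.55-fold (1.48 to 1.62) higher with T3 and 1.56-fold (1.49 to 1.64) higher in hypoxia. Eif2s3x, the X-linked gene of the gamma subunit, which binds GTP and the initiator tRNA, was at 320.2 CPM with T3, 310.2 CPM in hypoxia and 226 CPM in control, 1.42-fold higher with T3 and 1.37-fold higher in hypoxia, and 35.3% of its words occur in other genes. Its Y-linked counterpart Eif2s3y was at 20.4 CPM with T3, 19.0 CPM in hypoxia and 18.9 CPM in control, 1.08-fold (0.944 to 1.23) with T3 and 1-fold (0.868 to 1.16) in hypoxia, so no difference was detectable. The Y copy thus made up 5.99% of the reads of the pair in hypoxia with T3 (5.48 to 6.53), 5.77% in hypoxia (5.19 to 6.39) and 7.71% in control (7.01 to 8.47). Ddx3y, Y-linked copy of the RNA helicase gene Ddx3x, made up 4.75% of its own pair with T3, 4.84% in hypoxia and 7.29% in control. A different mix of male and female embryos and a different response of the X and Y copies cannot be told apart here. Per kilobase of the longest annotated coding transcript the control level was 14.7 CPM for Eif2s1, 52.3 CPM for Eif2s2 and 62.0 CPM for Eif2s3x, so the alpha subunit had the lowest transcript level of these subunits. Eif2a and Eif2d, which can deliver initiator tRNA without eIF2, stood at 37.2 CPM with T3, 38.2 CPM in hypoxia and 33.5 CPM in control (Eif2a) and at 23.2 CPM with T3, 26.3 CPM in hypoxia and 21.7 CPM in control (Eif2d). All 6 entries of this group were above control in both hypoxic libraries (median log2 ratio 0.18 with T3 and 0.24 without), where 56.4% and 54.5% of all genes were. With libraries scaled to equal sums only 3 of 6 were with T3 and 5 of 6 without.

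For eIF2B, the exchange factor that the integrated stress response acts on, 4 of 5 subunit transcripts were higher in the hypoxic libraries. Above control were 54.5% of all genes in hypoxia and 56.4% with T3, and 77.6% of genes spanning under 10 kb in hypoxia. Eif2b4 (chr5:31187558-31193430, minus strand, GRCm38), the delta subunit, was at 41.4 CPM in hypoxia with T3, 42.9 CPM in hypoxia and 23.7 CPM in control, 1.74-fold (1.57 to 1.94) higher with T3 and 1.81-fold (1.62 to 2.03) higher in hypoxia. Eif2b1 and Eif2b2, the alpha and beta subunits, which with delta form the regulatory core, stood at 38.1 CPM with T3, 36.0 CPM in hypoxia and 23.8 CPM in control (Eif2b1) and at 31 CPM with T3, 29.2 CPM in hypoxia and 20.0 CPM in control (Eif2b2). Eif2b1 was 1.6-fold higher with T3 and 1.51-fold higher in hypoxia than in control, and Eif2b2 was 1.55-fold higher with T3 and 1.46-fold higher in hypoxia. Eif2b5, the catalytic epsilon subunit, was at 92.8 CPM with T3, 91.9 CPM in hypoxia and 72 CPM in control, 1.29-fold higher with T3 and 1.28-fold higher in hypoxia. Eif2b3, the gamma subunit, stood apart at 11.8 CPM with T3, 13.4 CPM in hypoxia and 14.1 CPM in control, 0.839-fold (0.711 to 0.991) with T3 and 0.949-fold (0.798 to 1.13) in hypoxia. It also had the lowest control level per kilobase of transcript, 3.75 CPM, where the other subunits had 11.7 to 28.2 CPM, and the longest span of the group, 67.9 kb against 5.87 to 10.5 kb. Exons of Snx17 lie opposite 7.85% of the exonic bases of Eif2b4. The same 4 subunits were above control, and Eif2b3 below it, with libraries scaled to equal sums.

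On the deposited scaling the 4 kinases of eIF2 alpha were close to control as a sum, and they differed among themselves. Their sum was 116 CPM in hypoxia with T3, 109.5 CPM in hypoxia and 109 CPM in control, 1.06-fold (1.01 to 1.12) with T3 and 1-fold (0.946 to 1.07) in hypoxia over control. Eif2ak1 (HRI, which senses haem and mitochondrial stress) was the most abundant, at 69.4 CPM with T3, 63.7 CPM in hypoxia and 55.6 CPM in control, 1.25-fold (1.16 to 1.35) higher with T3 and 1.15-fold (1.06 to 1.24) higher in hypoxia. Eif2ak3 (PERK, of the endoplasmic reticulum) was at 27.0 CPM with T3, 24 CPM in hypoxia and 26.2 CPM in control and Eif2ak2 (PKR, which binds double-stranded RNA) at 6.76 CPM with T3, 6.30 CPM in hypoxia and 6.77 CPM in control, and the intervals of these ratios over control span 1. Eif2ak4 (GCN2, which senses uncharged tRNA) was lowest in hypoxia with T3, at 12.8 CPM, against 15.5 CPM in hypoxia and 20.5 CPM in control. It was 1.61-fold lower in hypoxia with T3 over control (1.38 to 1.87) and 1.32-fold lower in hypoxia over control (1.13 to 1.54). With libraries scaled to equal sums the median log2 ratio of the kinases in hypoxia over control was −0.26, against −0.10 over all genes. Eif2ak1 was then at 0.02, Eif2ak2 at −0.24, Eif2ak3 at −0.29 and Eif2ak4 at −0.54. Exons on the opposite strand overlap Eif2ak1 (Aimp2, 8.59% of its exonic bases) and Eif2ak3 (8.05%), and the strand setting of the counting is not given in the sources used here.

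In the eIF3 complex every subunit was moderately higher. All 13 entries were above control in both hypoxic libraries, also with libraries scaled to equal sums. On the deposited scaling 54.5% of all genes were above control in hypoxia and 56.4% with T3. The log2 ratios ran over 0.30 to 0.65 in hypoxia (median 0.53) and 0.31 to 0.65 in hypoxia with T3 (median 0.52). The complex summed to 2109 CPM in hypoxia with T3, 2119.9 CPM in hypoxia and 1499 CPM in control, 1.41-fold higher in each (1.39 to 1.43 and 1.39 to 1.44). Eif3f, a subunit of the MPN type, was highest in ratio in hypoxia, at 216 CPM with T3, 222 CPM in hypoxia and 140.5 CPM in control, 1.54-fold higher with T3 and 1.58-fold higher in hypoxia. Eif3g, with an RNA recognition motif, was at 64.0 CPM with T3, 67.9 CPM in hypoxia and 43.8 CPM in control, Eif3h, the other MPN subunit, at 173 CPM with T3, 183 CPM in hypoxia and 119.7 CPM in control, and Eif3c, a core subunit that contacts eIF1, at 364 CPM with T3, 370.4 CPM in hypoxia and 245 CPM in control. Eif3i, a WD40 subunit, was at 89.5 CPM with T3, 82.8 CPM in hypoxia and 56.7 CPM in control and passed 1.5-fold only in hypoxia with T3. The large scaffold subunit gene Eif3a had the smallest ratio, at 348 CPM with T3, 344 CPM in hypoxia and 279 CPM in control, 1.24-fold (1.2 to 1.29) higher with T3 and 1.23-fold (1.19 to 1.28) higher in hypoxia. Per kilobase of transcript, the control levels of the subunits other than eIF3j lay between 39.8 CPM (Eif3g and Eif3m) and 92.4 CPM (Eif3h), above the 3.75 to 28.2 CPM of the eIF2B subunits. The remaining subunits Eif3b, Eif3d, Eif3e, Eif3k, Eif3l and Eif3m had log2 ratios between 0.43 and 0.54 with T3 and between 0.44 and 0.56 in hypoxia. Opposite-strand exons cover 43.3% of the exonic bases of Eif3d, and 29.4% of the words of Eif3h and 26.2% of those of Eif3m occur in other genes.

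The loosely bound subunit eIF3j is encoded by Eif3j1 on chromosome 2 and by Eif3j2 on chromosome 18, whose annotated transcript has 1 exon. Eif3j2 shares 94.0% of its 31-base words with Eif3j1, and 38.1% of the words of Eif3j1 occur in Eif3j2. Listed separately, Eif3j2 was at 49.5 CPM in hypoxia with T3, 13.8 CPM in hypoxia and 0.973 CPM in control, and Eif3j1 at 28.7 CPM with T3, 61.7 CPM in hypoxia and 57.3 CPM in control. Eif3j2 took 63.3% of the reads of the pair in hypoxia with T3, 18.2% in hypoxia and 1.67% in control, so the split differed between the libraries while the sum was 78.2 CPM with T3, 75.5 CPM in hypoxia and 58.3 CPM in control. The sum was 1.34-fold (1.25 to 1.44) higher in hypoxia with T3 and 1.3-fold (1.2 to 1.4) higher in hypoxia over control, within the range of the other eIF3 subunits. In the authors' deposited tables, which list the copies apart, Eif3j2 was the only initiation factor gene with a false discovery rate below 0.05, at a fold of 48.2 and a rate of 2.92e-09 for hypoxia with T3 over control and at 13.5 and 1.46e-04 for hypoxia over control. Over all 13152 genes of those tables, 0.791% and 0.646% had such a rate. How reads were divided between the copies is not given in the sources used here, so no direction is read from either copy alone.

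**Figure D2:**
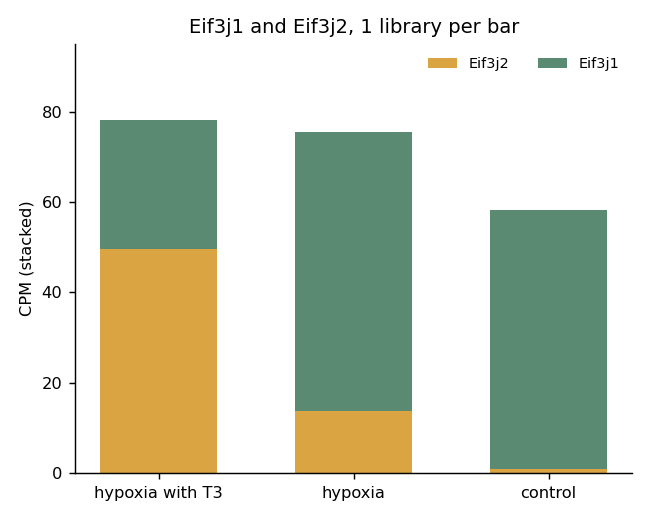
CPM of Eif3j2 and Eif3j1 stacked for hypoxia with T3, hypoxia and control, 1 library per bar. The sums are 78.2 CPM with T3, 75.5 CPM in hypoxia and 58.3 CPM in control, while the share listed under Eif3j2 is 63.3% with T3, 18.2% in hypoxia and 1.67% in control.

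The helicase genes and their cofactors were higher, led by the eIF4A isoform that is abundant in brain. Eif4a2 was at 502 CPM in hypoxia with T3, 484 CPM in hypoxia and 299 CPM in control, 1.68-fold (1.63 to 1.73) higher with T3 and 1.62-fold (1.57 to 1.67) higher in hypoxia. Eif4a1, the other helicase of the cap-binding complex, was at 618 CPM with T3, 603 CPM in hypoxia and 424 CPM in control, 1.46-fold (1.42 to 1.49) higher with T3 and 1.42-fold (1.38 to 1.46) higher in hypoxia. Eif4a2 made up 44.8% of the reads of the pair in hypoxia with T3 (44.2 to 45.4), 44.5% in hypoxia (43.8 to 45.2) and 41.4% in control (40.6 to 42.1), so the intervals of the hypoxic libraries lie above that of control. Eif4b, which stimulates eIF4A, was at 362 CPM with T3, 338 CPM in hypoxia and 229.6 CPM in control, 1.57-fold higher with T3 and 1.47-fold higher in hypoxia, and Eif4h, a related stimulator, at 301 CPM with T3, 300.2 CPM in hypoxia and 238 CPM in control, 1.26-fold higher in each. Eif4a3, whose protein belongs to the exon junction complex and not to the initiation machinery proper, was at 70.8 CPM with T3, 72.7 CPM in hypoxia and 59.5 CPM in control. All 5 genes of this group were above control in both hypoxic libraries, also with libraries scaled to equal sums. On the deposited scaling 54.5% of all genes were above control in hypoxia and 56.4% with T3. Sequences shared with other genes cover 31.1% of the words of Eif4a1 and 14.9% of those of Eif4a2.

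The scaffold genes of the eIF4G family were less far from control. Eif4g2 (DAP5), which lacks the eIF4E-binding part and serves cap-independent initiation, was the most abundant member of the whole family in reads, at 1785 CPM in hypoxia with T3, 1749 CPM in hypoxia and 1304 CPM in control, 1.37-fold (1.35 to 1.39) higher with T3 and 1.34-fold (1.32 to 1.36) higher in hypoxia. Eif4g1, the main scaffold, was at 535 CPM with T3, 512 CPM in hypoxia and 453 CPM in control, 1.18-fold higher with T3 and 1.13-fold higher in hypoxia. With libraries scaled to equal sums the log2 ratio of Eif4g1 in hypoxia over control was 0.00. Eif4g3 was at 397 CPM with T3, 406 CPM in hypoxia and 369 CPM in control, 1.07-fold higher with T3 and 1.10-fold higher in hypoxia, and was below control with libraries scaled to equal sums.

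The genes of cap recognition were nearer to control or below it. Eif4e, the cap-binding protein itself, was at 113 CPM in hypoxia with T3, 112 CPM in hypoxia and 99.5 CPM in control, 1.13-fold higher in each (1.07 to 1.2 and 1.06 to 1.2). With libraries scaled to equal sums its log2 ratio over control was 0.00 in hypoxia and below 0 in hypoxia with T3. Eif4e2 (4EHP), a cap-binding relative of Eif4e, was at 72.1 CPM with T3, 70.8 CPM in hypoxia and 77.3 CPM in control. Eif4e3 (chr6:99625135-99666771, minus strand, GRCm38), a cap-binding relative that does not bind the 4E-binding proteins, had the lowest ratio of all members at 84 reads with T3, 72 in hypoxia and 177 in control, or 3.57 CPM with T3, 3.98 CPM in hypoxia and 8.20 CPM in control. It was 2.30-fold lower in hypoxia with T3 (1.76 to 3.01) and 2.06-fold lower in hypoxia (1.56 to 2.75) over control, and 13.0% of its words occur in the overlapping gene Gm20696. As a share of the reads of Eif4e and Eif4e3 together, Eif4e3 was 3.08% in hypoxia with T3 (2.46 to 3.79), 3.42% in hypoxia (2.68 to 4.28) and 7.62% in control (6.57 to 8.77).

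The 4E-binding proteins, repressors that compete with eIF4G for eIF4E, differed in direction. Eif4ebp2, the main form in neurons, was at 24.7 CPM in hypoxia with T3, 26.0 CPM in hypoxia and 38.4 CPM in control, 1.55-fold lower with T3 (1.39 to 1.73) and 1.48-fold lower in hypoxia (1.32 to 1.66). Eif4ebp1, a known ATF4 target, was at 6.97 CPM with T3, 6.96 CPM in hypoxia and 4.87 CPM in control, 1.43-fold higher in each (1.11 to 1.85 and 1.10 to 1.87), from 164 reads with T3, 126 in hypoxia and 105 in control. Eif4ebp1 thus made up 22% of the reads of the pair in hypoxia with T3 (19.1 to 25.1), 21.1% in hypoxia (17.9 to 24.6) and 11.2% in control (9.29 to 13.4), with both hypoxic intervals above that of control. Eif4ebp3 was at 2.21 CPM with T3, 1.77 CPM in hypoxia and 2.55 CPM in control, a difference not detectable at this depth, and 66.4% of its words occur in an overlapping transcript. Eif4enif1, which carries eIF4E into the nucleus and to P-bodies, was at 49.7 CPM with T3, 48.3 CPM in hypoxia and 55.5 CPM in control. The group summed to 83.6 CPM with T3, 83.0 CPM in hypoxia and 101 CPM in control, 0.826-fold (0.776 to 0.878) with T3 and 0.819-fold (0.767 to 0.875) in hypoxia.

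Of the late factors, Eif5a and Eif6 were higher, and Eif5a2 and Eif5b lower, in both hypoxic libraries. Eif5a, whose hypusine-bearing protein helps ribosomes through proline-rich stretches, was at 423 CPM in hypoxia with T3, 426 CPM in hypoxia and 281 CPM in control, 1.51-fold (1.46 to 1.56) higher with T3 and 1.52-fold (1.47 to 1.57) higher in hypoxia. Its paralog Eif5a2 was at 28.3 CPM with T3, 27.6 CPM in hypoxia and 35.9 CPM in control, 1.27-fold lower with T3 and 1.3-fold lower in hypoxia. Eif5a2 made up 6.26% of the reads of the pair in hypoxia with T3 (5.81 to 6.74), 6.07% in hypoxia (5.56 to 6.61) and 11.3% in control (10.6 to 12.1). Eif6, which keeps free large subunits from joining and acts in their assembly, was at 48.3 CPM with T3, 51.8 CPM in hypoxia and 32.5 CPM in control, 1.49-fold higher with T3 and 1.59-fold higher in hypoxia. Eif5b, the GTPase of subunit joining, was at 84.1 CPM with T3, 80.0 CPM in hypoxia and 93.7 CPM in control, 1.11-fold (1.05 to 1.19) lower with T3 and 1.17-fold (1.09 to 1.25) lower in hypoxia, and 16.8% of its exonic bases lie opposite Rev1. The spans are 5.25 kb for Eif5a and 7.09 kb for Eif6, against 17.6 kb for Eif5a2 and 57.6 kb for Eif5b.

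**Figure D3:**
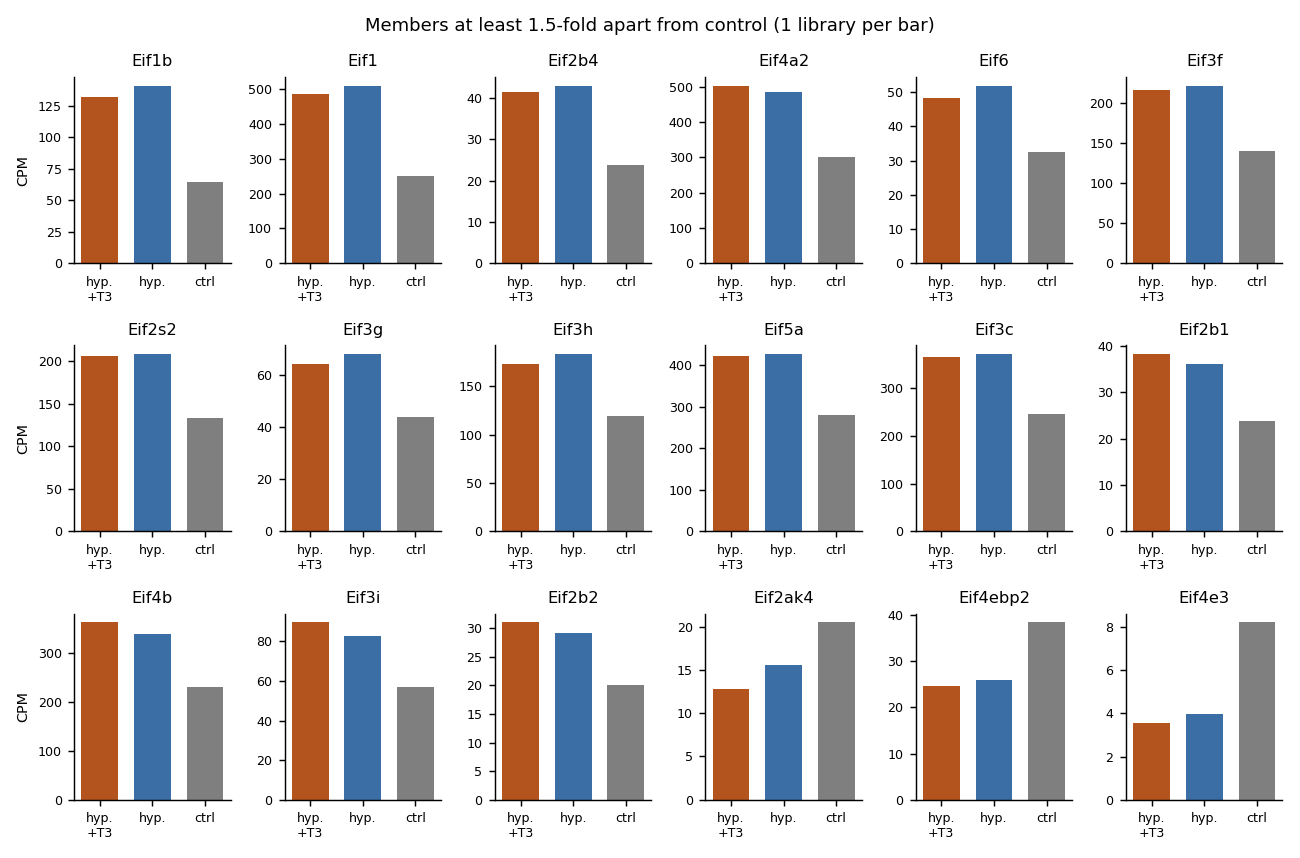
CPM in hypoxia with T3, hypoxia and control (1 library per bar, each panel with its own axis from 0) for the 18 members at least 1.5-fold from control in either hypoxic library. The 15 higher members run from Eif1b at 133 CPM with T3, 141 CPM in hypoxia and 64.3 CPM in control down to Eif2b2 at 31 CPM with T3, 29.2 CPM in hypoxia and 20.0 CPM in control, and the 3 lower members are Eif2ak4, Eif4ebp2 and Eif4e3. The share of all genes called in either library was not computed. With libraries scaled to equal sums Eif1, Eif1b and Eif2b4 stay at least 1.5-fold higher in both. Eif4e3 and Eif4ebp2 are then at least 1.5-fold lower in both, and Eif2ak4 in hypoxia with T3.

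Longer genes had lower ratios. Across the 52 single members compared, the log2 ratio of hypoxia over control and the gene span had a Spearman's rho of −0.60 (Pearson's r −0.50 with log10 span). Over 12618 genes these were −0.51 and −0.47, and all of these genes share the same 2 libraries and are not independent. Members that span under 10 kb had a median log2 ratio of 0.60 (15 genes), against 0.33 over 2956 genes of that span. From 10 to 30 kb the medians were 0.35 (23 members) and 0.18 (3971 genes), and at 30 kb or more 0.03 (14 members) and −0.20 (5691 genes). Eif3h, which spans 79.0 kb, was 1.53-fold higher in hypoxia, so it departs from the relation. The part of gene span in the differences was not tested beyond these values.

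**Figure D4:**
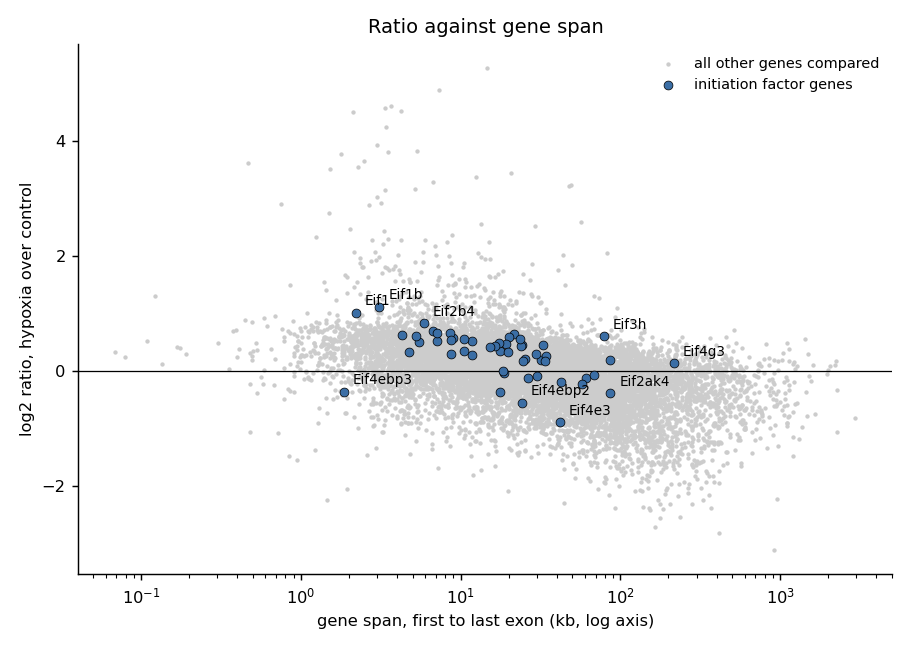
Log2 ratio of hypoxia over control against gene span in kb on a log axis, for 52 members (dark points) and the other genes compared (grey). Eif1, Eif1b and Eif2b4 lie among short genes with ratios of 1.01, 1.12 and 0.83, and Eif2ak4 and Eif4e3, with longer spans, lie at −0.38 and −0.89. Spearman's rho is −0.60 over the members.

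Other genes of protein synthesis and turnover were set beside the initiation factors, which had 41 of 53 above 0, or 39 with libraries scaled to equal sums. Ribosomal protein genes had a median log2 ratio of 0.68 for hypoxia over control, with 71 of 81 at least 1.5-fold higher, or 11 with equal sums. All 81 were above 0 under either scaling. Proteasome subunit genes had a median of 0.37 with 5 of 36 at least 1.5-fold higher, or 0 with equal sums. Of these, 36 were above 0, or 32 with equal sums. Aminoacyl-tRNA synthetase genes had a median of 0.27 with 2 of 38 at least 1.5-fold higher, or 1 with equal sums. Of these, 29 were above 0, or 23 with equal sums. Over all genes compared 8.45% were at least 1.5-fold higher, or 4.09% with equal sums. The initiation factors, at 0.35, ranged over −0.89 to 1.12. The difference between lists was not tested.

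**Figure D5:**
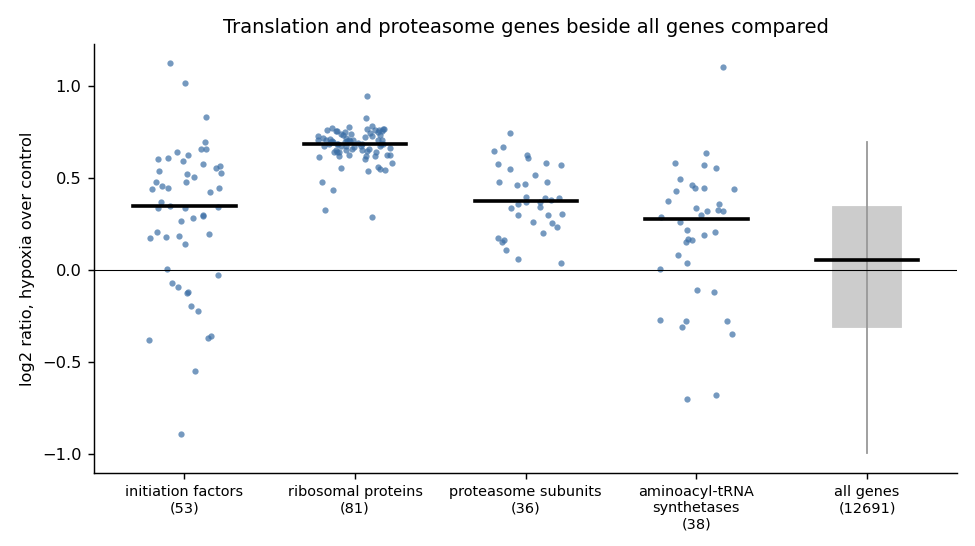
Log2 ratio of hypoxia over control for each gene of 4 lists, with a bar at the median, and for all genes compared as the 5th to 95th percentile (line), quartiles (box) and median (bar). Medians are 0.35 for initiation factors, 0.68 for ribosomal proteins, 0.37 for proteasome subunits, 0.27 for aminoacyl-tRNA synthetases and 0.05 for all genes. Scaling to equal sums lowers them all, to 0.18, 0.51, 0.20, 0.11 and −0.10.

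Among 50 other genes of initiation control, elongation and termination, 11 were at least 1.5-fold higher and 2 at least 1.5-fold lower in hypoxia over control (8.45% and 13.8% of all genes), and 34 were above 0. With libraries scaled to equal sums these were 3 and 4 (4.09% and 19.3% of all genes), and 24 were above 0. Their median log2 ratio was 0.13, or −0.05 with equal sums. The largest ratios were those of Ppp1r15a, the inducible subunit that returns eIF2 alpha to its unphosphorylated form, 9.18-fold higher, and Ddit4, an inhibitor of mTORC1, 4.26-fold higher. Ppp1r15b, the constitutive counterpart of Ppp1r15a, was at 149 CPM in hypoxia with T3, 151 CPM in hypoxia and 91.0 CPM in control, 1.63-fold (1.54 to 1.73) higher with T3 and 1.66-fold (1.56 to 1.76) higher in hypoxia. Mknk2, a kinase of eIF4E, was at 123 CPM with T3, 127 CPM in hypoxia and 71.1 CPM in control, 1.73-fold higher with T3 and 1.79-fold higher in hypoxia, and Impact, an inhibitor of GCN2, at 65.5 CPM with T3, 68.2 CPM in hypoxia and 41.5 CPM in control, 1.58-fold higher with T3 and 1.64-fold higher in hypoxia. Ddx3x, a helicase that aids scanning, was 1.68-fold higher with T3 and 1.63-fold higher in hypoxia. Larp4, which binds poly(A) and its binding protein, was at 36.4 CPM with T3, 33.6 CPM in hypoxia and 56.6 CPM in control, 1.55-fold lower with T3 and 1.69-fold lower in hypoxia, and Cyfip1, a binder of eIF4E in neurons, at 37.3 CPM with T3, 35.3 CPM in hypoxia and 56.2 CPM in control, 1.51-fold lower with T3 and 1.59-fold lower in hypoxia.

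Against control, hypoxia with T3 gave values close to those of hypoxia alone, and the comparisons share the control library. Of the 53 entries, 11 were at least 1.5-fold higher (8.72% of all genes) and 3 at least 1.5-fold lower (13.1% of all genes), or 3 and 3 with libraries scaled to equal sums (3.99% and 19% of all genes under that scaling), where the count of higher entries was near the background. At 2-fold, 1 was higher, Eif1b, and 1 was lower, Eif4e3 (2.06% and 4.59% of all genes). A ratio above 0 was found for 42 (56.4% of all genes), or 36 with equal sums, and the median log2 ratio was 0.39, against 0.08 over all genes. In the list of other translation genes 11 were at least 1.5-fold higher and 1 lower, with a median of 0.20, or 3, 3 and 0.02 with equal sums. Eef2 and Eef1a1, the elongation factors, stood at 2276 CPM with T3, 2172 CPM in hypoxia and 1358 CPM in control (Eef2) and at 4349.6 CPM with T3, 4259 CPM in hypoxia and 2641 CPM in control (Eef1a1), which is 1.68-fold and 1.65-fold in hypoxia with T3 over control.

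With T3 and without it, the hypoxic libraries had close values for the initiation factor genes, as they did over all genes. For hypoxia with T3 over hypoxia, 0 of 53 entries were at least 1.5-fold higher and 0 at least 1.5-fold lower, where 0.709% and 0.268% of all genes were. At 2-fold the counts were also 0 and 0 (0.118% and 0.0552% of all genes), and the median log2 ratio was 0.00, against 0.01 over all genes. Counts and median were thus near the background. A ratio above 0 was found for 29 of 53 (54.1% of all genes). With libraries scaled to equal sums it was found for 22, and the all-gene median was then −0.01. The lowest was Eif2ak4, at 12.8 CPM in hypoxia with T3 and 15.5 CPM in hypoxia, 1.22-fold lower (1.03 to 1.44), and the highest Eif4ebp3, at 52 reads with T3 and 32 in hypoxia, with an interval that spans 1. Eif2d was at 23.2 CPM with T3 and 26.3 CPM in hypoxia (0.881-fold, 0.778 to 0.999) and Eif2ak1 at 69.4 CPM with T3 and 63.7 CPM in hypoxia (1.09-fold, 1.01 to 1.18). Intervals of other members also left out 1 in either direction, as for Eif1 (0.957-fold, 0.931 to 0.984) and Eif4b (1.07-fold, 1.04 to 1.11). Among 53 intervals of 95% some would leave out 1 by counting error alone. For abundant members the intervals were narrow, as for Eif4g2, at 1.02-fold (1.01 to 1.04), so counting error alone leaves little room for a difference there, while variation between cultures was not measured.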

How the data were processed

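RNA was measured in 3 groups of 1 library each, assigned by the treatment labels. The authors deposited CPM, TMM-scaled per the file's name. Per the submitters' processing notes, RSEM 1.2.15, Bowtie2 2.1.0, bcl2fastq 2.17 and the build mm10 were used, with no roles given. Dividing each CPM by that of 1 read (0.0425 in hypoxia with T3, 0.0552 in hypoxia, 0.0463 in control) gave a whole number within 0.01 for 100% of values, and these whole numbers were used as reads. Whether they are counted reads or RSEM's estimated reads after rounding is not given in the sources used here, and in the second case the intervals are too narrow for genes that share sequence. A count of 0 allows up to 3 reads (0.128, 0.166 and 0.139 CPM for the same libraries). No count test was run, because 1 library per group leaves no residual degrees of freedom. The deposited comparison tables give the authors' signed fold, false discovery rate and p-value, by a test not given in the sources used here. The signal per library in those tables, deposited on another scale, was not used.

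Log2 ratios used CPM with 1 added and covered genes averaging at least 1 CPM. Intervals are exact 95% Clopper-Pearson intervals for counting error only, and duplicate reads were not told from separate molecules here. The members, lists and rules were chosen with earlier results of these data known. The members described in full are those at least 1.5-fold apart with a mean of at least 5 CPM, and the most abundant, highest and lowest of each role; other members are given more briefly. Of 50 other translation genes, up to 6 per direction and comparison are named. Spans, transcript lengths and shared 31-base words came from GENCODE M21 (GRCm38, the assembly of mm10), matched for 12618 of the genes compared, and promoter windows from RefSeq for 43 of 55 members. The software was matplotlib 3.10.9, scipy 1.17.1, pandas 2.3.3, numpy 2.4.6 and Python 3.11.15. The log2 ratio, the call at 1.5-fold and the interval were tested on reads simulated with counting error only. Variation between cultures and sequence shared between genes were not simulated, and the other steps were not tested in this way. The 7 alternatives were 2 other scalings, adding 0.5 or 5 CPM, no filter, a filter at 5 CPM, and reading Eif3j1 and Eif3j2 apart.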

Additional observations from a re-analysis of the deposited data

How the results depend on the processing

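No paired analysis was possible because each group has 1 library. Of 105 recomputed counts and medians, 83 stayed close to the values above and 22 moved. Close meant a count equal to or within 1.5-fold of the first, or a median inside a rank interval over the members. That interval treats members of the same libraries as independent, and counts of 0 that stayed 0 are among the 83. No member called at 1.5-fold changed direction, but added CPM cannot reverse a ratio and the rescalings shifted ratios by less than 1.5-fold. After scaling to equal sums, the members at least 1.5-fold higher and lower were 3 and 2 in hypoxia over control (2-fold, 0 and 1), against 4.09% and 19.3% of all genes (2-fold, 1.47% and 7.48%), and 3 higher in hypoxia with T3 over control (2-fold, 0), against 3.99% (1.54%), and the medians were 0.18 and 0.20. With median-of-ratios size factors they were 6 and 2 in hypoxia over control (2-fold, 1 higher), against 6.49% and 15.5% of all genes (1.78%), and 4 higher in hypoxia with T3 over control (2-fold, 0), against 5.95% (1.77%). With 5 CPM added, 0 were at least 1.5-fold lower in hypoxia over control (8.74% of all genes), and for hypoxia with T3 over control 1 was at least 1.5-fold lower (8.06%) and 0 were 2-fold higher or lower (1.31% and 2.12%). With Eif3j1 and Eif3j2 apart, 2 were at least 2-fold higher in hypoxia with T3 over control (2.06%), and for hypoxia with T3 over hypoxia 1 was higher and 1 lower at both thresholds (0.717% and 0.276%; 2-fold, 0.126% and 0.063%). Eif1, Eif1b and Eif2b4 were at least 1.5-fold higher over control under all 7 alternatives in both hypoxic libraries. The filters and the split of Eif3j1 and Eif3j2 leave their ratios unchanged, so only the rescalings and the added CPM could alter these calls. Adding 5 CPM draws low genes such as Eif4e3 toward no difference by construction. A rescaling multiplies each library by a common factor and so shifts all ratios of a comparison nearly alike. With equal sums the log2 ratio of hypoxia over control went from 1.01 to 0.84 for Eif1 and from 0.59 to 0.42 for Eif3c. Reading Eif3j1 and Eif3j2 apart adds their separate calls. Why the libraries differ in their sums was not tested. Members under 200 reads, namely Eif4e3, Eif4ebp1, Eif4ebp3 and Eif2ak2, have the widest intervals, and Eif4e1b was too low to compare.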
